A study of Mus musculus with 9 samples.

Results

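Dendritic cell genes were followed in LSK cells, the immature blood-forming fraction of bone marrow defined by the absence of lineage markers and the presence of Sca-1 and c-Kit. The set holds 10 mouse genes listed as markers and factors of conventional and plasmacytoid dendritic cells: Xcr1, Clec9a, Batf3, Zbtb46, Itgax, Siglech, Tcf4, Cd209a, Bst1 and Naaa. They were matched by symbol to the Ensembl identifiers of the deposited table, which holds 14461 genes, and 9 of the 10 were found. Cd209a was not analysed here. Of the 9, 7 reached a normalised value of at least 1 in at least 3 libraries and were tested, while Batf3 and Siglech did not and are given as values.

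The 9 libraries came from LSK cells sorted from the marrow of parabiotic mice, animals joined surgically so that they share a circulation. The circulating group (3 libraries, strain label C57BL/6) is described as LSK cells that had travelled to the marrow of an irradiated parabiont. The irradiated group (3 libraries) also carries the strain label C57BL/6, and the endogenous group (3 libraries) carries B6SJL CD45.1, a strain with the CD45.1 form of the leukocyte antigen CD45. Strain label and group therefore cannot be told apart in comparisons with endogenous cells, and all mice were specific pathogen free. Age, sex, radiation dose, the time after surgery and whether each library of a group was a separate mouse are not stated in the labels or texts used here. P-values therefore measure the spread between these libraries, which may be technical.

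Dendritic cells take up, process and present antigen to T cells, and they arise in the marrow from progenitors that depend on the cytokine receptor Flt3. Type 1 conventional dendritic cells need the transcription factors Irf8 and Batf3, carry the chemokine receptor Xcr1 and the dead-cell receptor Clec9a, and cross-present antigen to cytotoxic T cells. Plasmacytoid dendritic cells need the E protein Tcf4, carry the surface lectin Siglech in mice, and are known for producing type I interferon. In bulk samples, fewer cells of a type and less RNA per cell cannot be told apart.

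Estimated counts recovered from the table totalled 14065855 in circulating replicate 2, the shallowest library, to 27012345 in irradiated replicate 2. Circulating libraries varied most, with a median SD per gene of 0.382 log2 units, against 0.213 in irradiated and 0.262 in endogenous libraries. Circulating replicate 2 stood apart for many of the genes described below, so results that rest on it are given with and without it. It held the highest of the 9 values for 6 of the 9 members, and for 17.7% of all tested genes. Transcripts of the sorting gate were present in every library: Ly6a, which encodes Sca-1, lay between 127 and 146 in circulating, 159 and 202 in irradiated and 169 and 194 in endogenous libraries. Kit, which encodes c-Kit, lay between 328 and 410 in circulating, 562 and 622 in irradiated and 737 and 1011 in endogenous libraries, and was called lower in circulating against endogenous cells (limma log2 fold change -1.20 ± 0.13 SE, adjusted p = 0.0026). Ly6a and the progenitor marker Cd34 were also wholly lower in circulating than in endogenous libraries and did not pass the test (log2 fold changes -0.39 and -0.62, limma adjusted p = 0.092 and 0.055). The part of this shift in the dendritic differences was not tested. All values are the authors' normalised values, which are estimated counts plus 0.5, times a constant of each library, with no correction for gene length. That constant is not set by depth alone. The values summed to 913996 in endogenous replicate 3 and 1134420 in circulating replicate 3.

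The promoters of the 6 members that peaked in circulating replicate 2 are shown, a choice made by that 1 library. Over the other libraries their patterns differed, with Itgax for example at its lowest in circulating replicate 1. Each window runs from 250 bases before to 50 bases after the RefSeq start in GRCm38.p6 and is read along the gene's own strand: chr9:123861980-123862279 (minus) for Xcr1, chr6:129408612-129408911 (plus) for Clec9a, chr5:92278132-92278431 (minus) for Naaa, chr1:191098164-191098463 (plus) for Batf3, chr2:181424339-181424638 (minus) for Zbtb46 and chr7:128129300-128129599 (plus) for Itgax. Capitals mark matches to the 4 motifs searched on both strands.
Xcr1: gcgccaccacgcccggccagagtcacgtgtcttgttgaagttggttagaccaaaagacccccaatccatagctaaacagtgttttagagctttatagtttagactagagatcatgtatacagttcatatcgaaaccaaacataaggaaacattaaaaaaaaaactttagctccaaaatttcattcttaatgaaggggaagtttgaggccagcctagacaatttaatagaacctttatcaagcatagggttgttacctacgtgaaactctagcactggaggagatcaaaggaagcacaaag
Clec9a: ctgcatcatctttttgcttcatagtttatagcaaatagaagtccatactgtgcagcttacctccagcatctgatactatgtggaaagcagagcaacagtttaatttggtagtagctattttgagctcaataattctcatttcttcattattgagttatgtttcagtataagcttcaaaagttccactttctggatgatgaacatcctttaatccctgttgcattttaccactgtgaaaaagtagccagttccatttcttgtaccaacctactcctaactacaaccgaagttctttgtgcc
Naaa: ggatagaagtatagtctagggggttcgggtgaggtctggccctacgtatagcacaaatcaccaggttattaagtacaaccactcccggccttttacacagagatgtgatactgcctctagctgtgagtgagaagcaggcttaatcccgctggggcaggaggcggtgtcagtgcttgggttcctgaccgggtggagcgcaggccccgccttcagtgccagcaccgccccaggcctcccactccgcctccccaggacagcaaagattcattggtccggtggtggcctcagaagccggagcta
Batf3: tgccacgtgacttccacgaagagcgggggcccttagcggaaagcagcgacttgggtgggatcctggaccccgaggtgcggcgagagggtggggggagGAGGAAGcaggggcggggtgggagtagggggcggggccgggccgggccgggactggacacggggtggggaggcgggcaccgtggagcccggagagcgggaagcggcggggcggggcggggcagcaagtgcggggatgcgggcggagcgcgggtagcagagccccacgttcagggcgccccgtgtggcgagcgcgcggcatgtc
Zbtb46: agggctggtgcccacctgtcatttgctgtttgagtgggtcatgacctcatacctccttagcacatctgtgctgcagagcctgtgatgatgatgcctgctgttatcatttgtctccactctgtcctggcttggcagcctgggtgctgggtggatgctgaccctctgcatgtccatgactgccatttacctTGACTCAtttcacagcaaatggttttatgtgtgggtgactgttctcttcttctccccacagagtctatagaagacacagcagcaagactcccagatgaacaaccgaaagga
Itgax: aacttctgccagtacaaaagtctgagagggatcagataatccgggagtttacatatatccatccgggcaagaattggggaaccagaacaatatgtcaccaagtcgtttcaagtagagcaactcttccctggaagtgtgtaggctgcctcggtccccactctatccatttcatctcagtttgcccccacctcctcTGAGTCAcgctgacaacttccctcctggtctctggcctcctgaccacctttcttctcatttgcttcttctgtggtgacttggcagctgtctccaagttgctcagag
The motifs were AP-1 (TGANTCA), PU.1 (GAGGAAG), a pair of interferon response half-sites (GAAA, any 2 bases, GAAA) and an Ets and IRF composite (GGAA, any 2 bases, GAAA), the last of which can overlap PU.1 letters. AP-1 letters occurred once each in the Zbtb46 and Itgax windows, 61 and 56 bases before the start, and in 7.93% of 27025 promoters of the same length. PU.1 letters occurred once in the Batf3 window, 153 bases before the start, and in 13.5% of promoters. The interferon response pair is found in 3.49% and the composite in 2.79% of promoters, and neither was in these 6 windows. The Xcr1, Clec9a and Naaa windows held none of the 4 motifs. The matches are a description of letters and not of binding. The windows of Zbtb46 and Batf3 lie wholly inside the annotated genes, since their RefSeq starts are not the outermost annotated starts. No promoter of Bst1 was matched in the RefSeq table.

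Circulating LSK cells were first set against endogenous LSK cells. Xcr1, Clec9a and Naaa, which are marker genes of type 1 conventional dendritic cells, rose in circulating cells, and Bst1 fell. Of the 7 tested members 3 were called higher and 1 lower, where 5.33% of all 13771 tested genes were called higher and 3.3% lower. The groups did not overlap for these 4, where 14.6% of all tested genes were wholly higher in circulating libraries and 12.9% wholly lower. Bst1 was tested only through its endogenous and irradiated values, so its call and lack of overlap are not independent of the filter. Zbtb46, Itgax and Tcf4 did not pass the test. Scaling by library size alone gave the same 3 and 1 for the members, while over all genes it called 336 higher and 816 lower in place of 734 and 455, and moved the median of all genes to -0.22. The median log2 fold change of the 7 was 1.60, beside -0.04 over all tested genes.

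Xcr1 encodes the receptor for the chemokine Xcl1 and lies on chromosome 9 from 123852315 to 123862029 in GRCm38. It stood at 24.1, 118 and 30.8 in circulating replicates 1, 2 and 3, at 13.3, 11.1 and 6.62 in irradiated replicates and at 5.08, 3.82 and 8.68 in endogenous replicates. Every circulating library lay above every other library, and the irradiated and endogenous groups overlapped. In circulating against endogenous cells the means were 57.6 ± 52.4 and 5.86 ± 2.52 (SD, n = 3 each), a log2 fold change of 2.79 (SE 0.54, limma adjusted p = 0.014). Without circulating replicate 2 it was 2.10 (limma adjusted p = 0.017). The call was lost without endogenous replicate 1 (limma adjusted p = 0.056) or endogenous replicate 2 (0.058), and held in the other 14 of 16 alternatives.

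Naaa encodes N-acylethanolamine acid amidase, a lysosomal lipid hydrolase, and lies on chromosome 5 from 92257659 to 92278170. Its values were 36.1, 363 and 101 in circulating, 47.8, 18.7 and 25.5 in irradiated and 16.2, 16.5 and 20.6 in endogenous libraries. All circulating libraries were above all endogenous libraries, but irradiated replicate 1 was above circulating replicate 1. The means were 167 ± 173 in circulating and 17.8 ± 2.47 in endogenous cells (SD, n = 3 each), with a log2 fold change of 2.58 (SE 0.64, limma adjusted p = 0.034). Without circulating replicate 2 the log2 fold change was 1.72 (limma adjusted p = 0.043). The call was lost without circulating replicate 3 (limma adjusted p = 0.081), irradiated replicate 3 (0.053) or endogenous replicates 1 (0.11), 2 (0.096) or 3 (0.079). Fitting only the 2 groups compared, voom on the estimated counts and a replicate block lost it too. It held in 8 of 16 alternatives.

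Clec9a encodes a C-type lectin that binds actin exposed by dead cells, on chromosome 6 from 129408862 to 129424763. Values were 6.42, 26.4 and 4.77 in circulating libraries, 4.11, 5.67 and 2.52 in irradiated libraries and 1.06, 2.23 and 0.520 in endogenous libraries. The endogenous group lay wholly below both others, which overlapped each other. The circulating mean was 12.5 ± 12 and the endogenous mean 1.27 ± 0.87 (SD, n = 3 each), with a log2 fold change of 2.28 (SE 0.57, limma adjusted p = 0.034). Without circulating replicate 2 it was 1.60 (limma adjusted p = 0.050), just above the threshold of 0.05. The call was also lost without irradiated replicates 1, 2 or 3 (limma adjusted p = 0.058, 0.052 and 0.052) or endogenous replicates 1, 2 or 3 (0.11, 0.064 and 0.10). Sample weights, fitting only the 2 groups compared and voom on the estimated counts lost it too. It held in 6 of 16 alternatives. The annotation overlaps this gene with Clec1b on the same strand, and Clec1b was not in the table.

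Batf3 encodes a basic leucine zipper transcription factor that type 1 conventional dendritic cells require, on chromosome 1 from 191097847 to 191108945. Its values were 0.881, 9.72 and 0.425 in circulating, 0.651, 0.274 and 0.102 in irradiated and 0.331, 0.375 and 0.135 in endogenous libraries. Circulating replicate 2 was the 1 library above 1, with 129 estimated counts, and the others held between 2 and 19. Its value was 11 times that of the next library, circulating replicate 1.

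**Figure D1:**
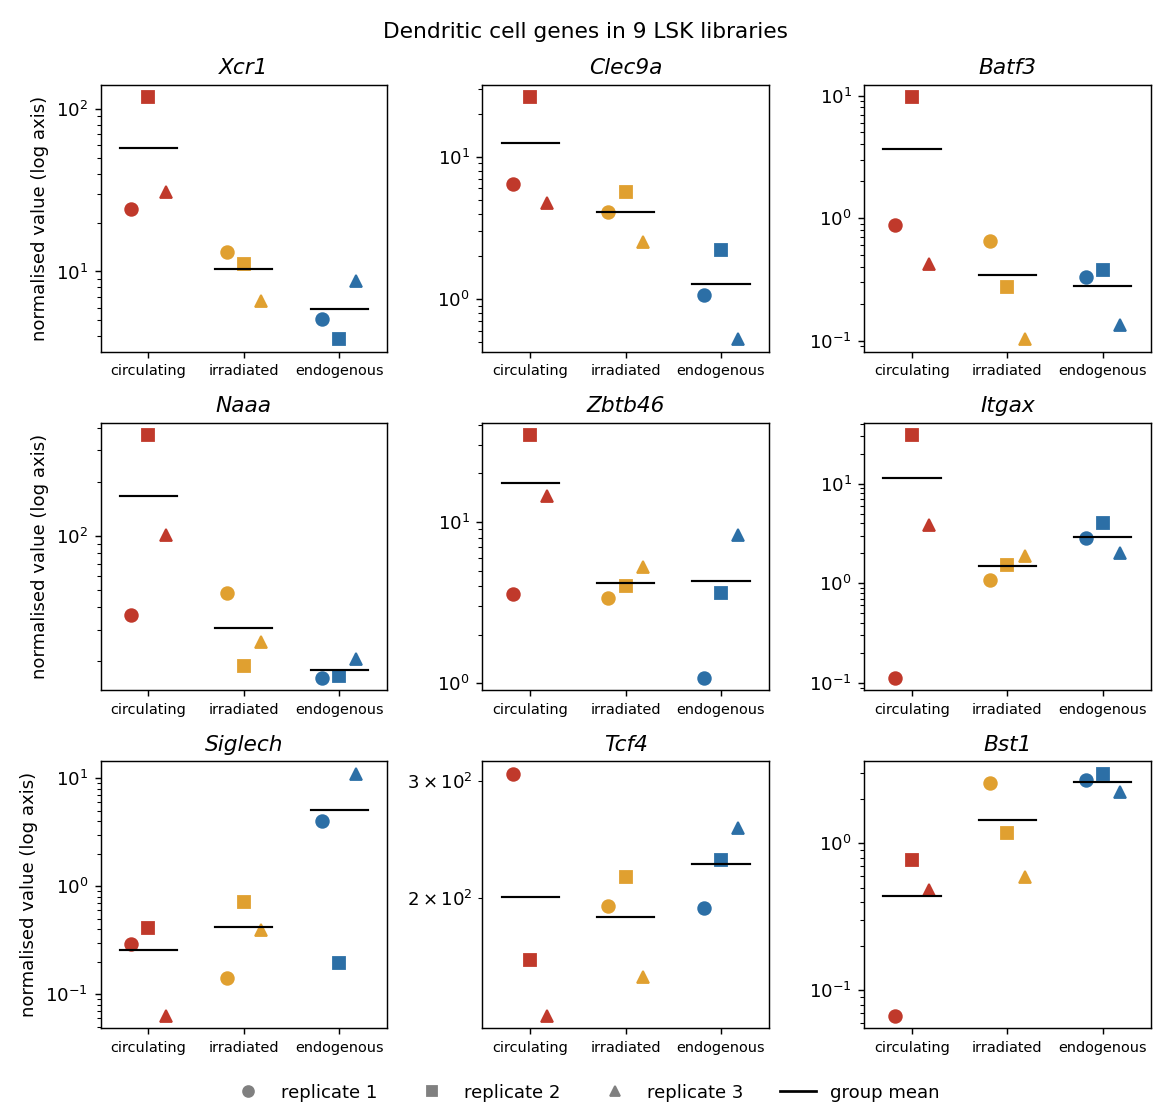
Normalised value (log axis) of each of the 9 measured dendritic cell genes in the circulating, irradiated and endogenous libraries. Symbols give the replicate number and bars the group means. Circulating replicate 2 (red square) is the highest library for Xcr1 (118), Clec9a (26.4), Batf3 (9.72), Naaa (363), Zbtb46 (34.4) and Itgax (30.5), and not for Siglech, Tcf4 or Bst1.

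Zbtb46 and Itgax are read across conventional dendritic cells of both types. Zbtb46 encodes a zinc finger repressor of the committed conventional lineage, on chromosome 2 from 181387762 to 181459426. It stood at 3.60, 34.4 and 14.5 in circulating, 3.39, 3.99 and 5.25 in irradiated and 1.08, 3.62 and 8.30 in endogenous libraries. Circulating replicates 2 and 3 were above all other libraries, while circulating replicate 1 lay among them. The log2 fold change against endogenous cells was 1.60 (SE 0.70, limma adjusted p = 0.17), and it was 2.39 without circulating replicate 1 (limma adjusted p = 0.025) and 0.91 without circulating replicate 2 (0.39).

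Itgax encodes the integrin CD11c, which is used to sort dendritic cells and is also found on some monocytes and NK cells, on chromosome 7 from 128129547 to 128150657. Values were 0.113, 30.5 and 3.88 in circulating, 1.09, 1.53 and 1.89 in irradiated and 2.83, 3.99 and 2.02 in endogenous libraries. Circulating libraries held both the lowest and the highest value, the lowest from 2 estimated counts. The log2 fold change against endogenous cells was 0.52 (SE 0.89, limma adjusted p = 0.74), with the opposite sign, -0.73, without circulating replicate 2 (limma adjusted p = 0.43) and -0.80 with voom on the estimated counts (0.75).

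The genes of plasmacytoid dendritic cells had another pattern. Tcf4 encodes the E protein E2-2, on chromosome 18 from 69343356 to 69689079, and is also transcribed in stem cells and lymphoid progenitors. Its values were 308, 161 and 133 in circulating, 195, 215 and 152 in irradiated and 193, 228 and 255 in endogenous libraries. The 3 groups overlapped, with circulating replicate 1 the highest library and circulating replicate 3 the lowest. The log2 fold change against endogenous cells was -0.25 (SE 0.26, limma adjusted p = 0.58), and without circulating replicate 1 it was -0.61 (limma adjusted p = 0.046).

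Siglech encodes a sialic acid-binding lectin that marks mouse plasmacytoid dendritic cells, on chromosome 7 from 55768178 to 55778925. Its values were 0.291, 0.413 and 0.0628 in circulating, 0.143, 0.717 and 0.390 in irradiated and 4.05, 0.196 and 11.1 in endogenous libraries. Endogenous replicates 3 and 1 were above 1, from 286 and 103 estimated counts. Endogenous replicate 2 lay among the circulating and irradiated libraries, and these 7 libraries held between 0.610 and 19.1 estimated counts each.

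Bst1 encodes CD157, a cell surface ectoenzyme of myeloid, B lineage and stromal cells, on chromosome 5 from 43818885 to 43843986. Bst1 was not counted here as a plasmacytoid gene. It stood at 0.0669, 0.772 and 0.481 in circulating, 2.56, 1.18 and 0.591 in irradiated and 2.67, 2.98 and 2.22 in endogenous libraries. The circulating group lay wholly below the endogenous group, and the irradiated group overlapped both. Bst1 reached a value of 1 in all 3 endogenous libraries, in irradiated replicates 1 and 2 and in no circulating library. It was thus tested only through the groups where it is higher. Its call and its lack of overlap are therefore not independent of the filter. The circulating mean was 0.440 ± 0.354 and the endogenous mean 2.62 ± 0.382 (SD, n = 3 each), a log2 fold change of -1.36 (SE 0.38, limma adjusted p = 0.047). The scale adds 1 to each value and so understates differences at this level, and circulating libraries held 0.980, 9.78 and 8 estimated counts. The call was kept without circulating replicate 2 (limma adjusted p = 0.049), and leaving out any other library lost it: 0.078 and 0.090 without circulating replicates 1 and 3, leaving out irradiated replicates 1, 2 or 3 gave 0.055, 0.076 or 0.061, and leaving out endogenous replicates 1, 2 or 3 gave 0.13, 0.13 or 0.093. Sample weights, fitting only the 2 groups compared, voom on the estimated counts and a replicate block lost the call too. It held in 3 of 16 alternatives, and with a pseudocount of 0.25 the limma adjusted p was 0.055. Bst1 overlaps Fbxl5 on the opposite strand, and reads of the 2 genes cannot be told apart in a library that does not mark strand.

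Per kilobase of annotated exon, the circulating means ran from Naaa at 44.8 through Xcr1 at 12.9, Tcf4 at 7.33, Clec9a at 3.80, Itgax at 2.40, Batf3 at 2.30 and Zbtb46 at 2.06 to Bst1 at 0.133 and Siglech at 0.0756. In endogenous cells Tcf4 was highest at 8.23 per kilobase, ahead of Naaa at 4.78, Siglech at 1.51 and Xcr1 at 1.32, while Batf3 was lowest at 0.176. These levels use the union of annotated exons as the length. Without circulating replicate 2 the circulating order was Naaa at 18.4, Tcf4 at 8.05, Xcr1 at 6.16, Clec9a at 1.70, Zbtb46 at 1.06, Itgax at 0.416, Batf3 at 0.409, Bst1 at 0.0826 and Siglech at 0.0523 per kilobase, with Tcf4 above Xcr1 and with Itgax and Batf3 below Zbtb46.

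**Figure D2:**
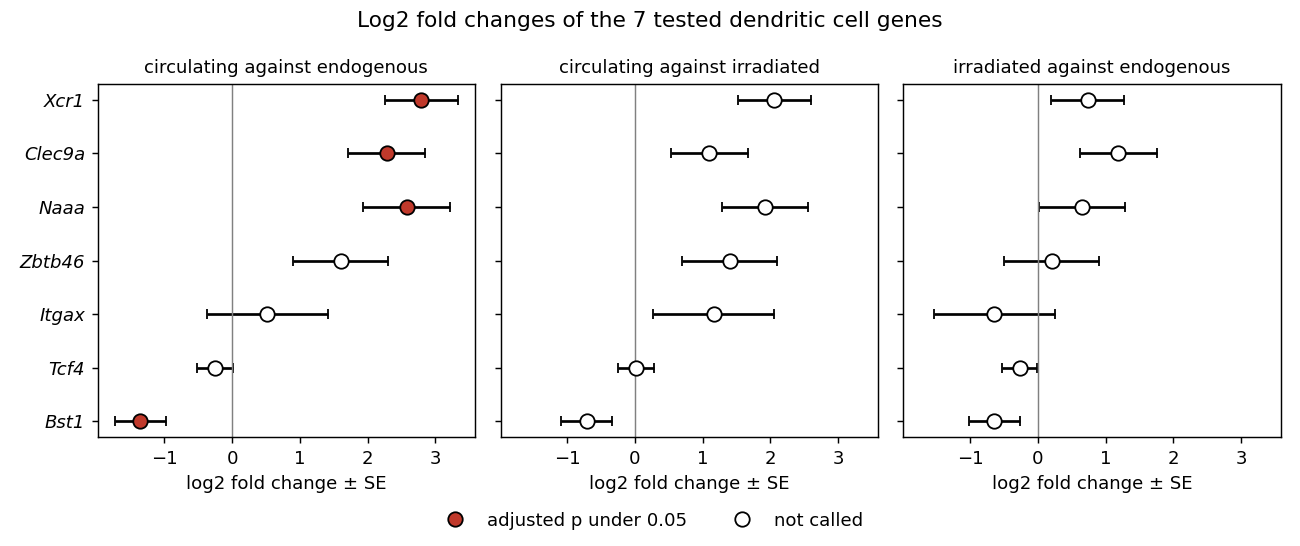
Log2 fold change on the log2(value + 1) scale, with its standard error, of the 7 tested members in the 3 comparisons. Positive values are higher in the first group named and filled points passed an adjusted p of 0.05. Filled points are Xcr1 (2.79), Clec9a (2.28), Naaa (2.58) and Bst1 (-1.36), all in circulating against endogenous cells.

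The calls against endogenous cells depended on which libraries were in the fit. Of the 7 tested members, 4 were called with all libraries, and dropping circulating replicates 1, 2 or 3 left 5, 3 or 2 calls. Dropping an irradiated library left 2 calls (replicate 1), 2 (replicate 2) or 1 (replicate 3), and dropping an endogenous library left 0 (replicates 1 and 2) or 1 (replicate 3). When only circulating and endogenous libraries were fitted 1 was called, and with sample weights 2. The directions of Xcr1, Clec9a, Naaa, Zbtb46, Tcf4 and Bst1 were the same in every alternative of this comparison, and that of Itgax was not.

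**Figure D3:**
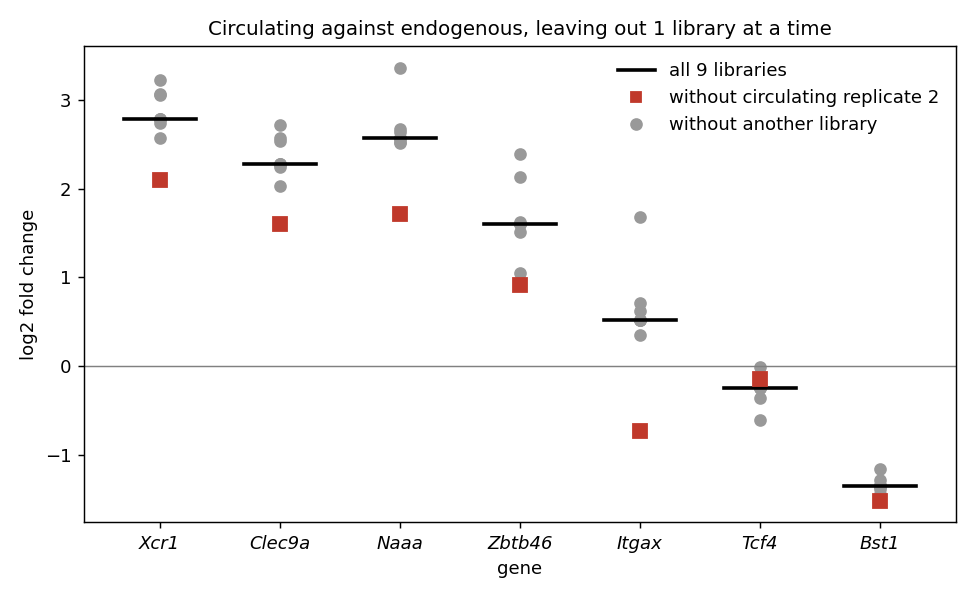
Log2 fold change of each tested member in circulating against endogenous cells with all 9 libraries (bar), without circulating replicate 2 (red square) and without each other library (grey points). Leaving out circulating replicate 2 gave 2.10 for Xcr1 and 1.72 for Naaa, and -0.73 for Itgax.

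Circulating cells were next compared with irradiated cells, which carry the same strain label. None of the 7 tested members passed limma's test, where 0.029% of all tested genes did. At an unadjusted p under 0.05 there were 2 of 7 members, Xcr1 and Naaa, and 1573 of the 13771 genes tested, and voom on estimated counts called 0. Xcr1 had the largest difference of the 7, with means of 57.6 ± 52.4 in circulating and 10.3 ± 3.38 in irradiated cells (SD, n = 3 each) and groups that did not overlap (limma log2 fold change 2.06 ± 0.54 SE, adjusted p = 0.24). Groups did not overlap in 16.7% of all tested genes. Naaa, at 167 ± 173 in circulating and 30.7 ± 15.2 in irradiated cells, had a log2 fold change of 1.92 (SE 0.64, limma adjusted p = 0.32), and Clec9a one of 1.10 (SE 0.57, 0.49). Without circulating replicate 2 these were 1.37 for Xcr1 (limma adjusted p = 0.25), 1.06 for Naaa (0.40) and 0.41 for Clec9a (0.76). Without circulating replicate 1, 1 member was called, Naaa (log2 fold change 2.71, limma adjusted p = 0.043). Tcf4 differed by 0.02 (SE 0.26, limma adjusted p = 0.99), and its sign was not stable, at -0.05 when scaled by library size alone and -0.34 without circulating replicate 1.

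Irradiated cells were then compared with endogenous cells. Again 0 of the 7 members passed limma's test, where 0.603% of all tested genes did. At an unadjusted p under 0.05 there were 0 members and 2053 of the 13771 genes tested, and voom called 0 members. Clec9a had the largest difference of the 7, at 4.10 ± 1.57 in irradiated and 1.27 ± 0.87 in endogenous cells (SD, n = 3 each), with groups that did not overlap (limma log2 fold change 1.19 ± 0.57 SE, adjusted p = 0.36). Groups did not overlap in 27.7% of all tested genes. Itgax was wholly lower in irradiated libraries, at 1.5 ± 0.404 against 2.95 ± 0.989 in endogenous libraries (limma log2 fold change -0.64 ± 0.89 SE, adjusted p = 0.80). Xcr1 and Naaa had log2 fold changes of 0.74 and 0.66 (limma adjusted p = 0.58 and 0.70). This comparison and the first share the endogenous libraries, and the first and second share the circulating libraries.

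The wider dendritic list adds 48 genes, of which 43 were in the table and 42 were tested. In circulating against endogenous cells 5 rose and 2 fell, with 35 not called and a median log2 fold change of 0.19. Over all tested genes 5.33% were called higher and 3.3% lower. When scaled by library size alone, 4 rose and 3 fell. The number called, 7 in all, became 17 when circulating replicate 1 was dropped, 3 when endogenous replicate 1 was dropped, and 4 when the library dropped was circulating replicate 3, irradiated replicates 2 or 3, or endogenous replicates 2 or 3. No gene of this list passed limma's test in circulating against irradiated cells, where 12 of 42 had an unadjusted p under 0.05, beside 1573 of the 13771 genes tested, and voom called 0, but 4 were called without circulating replicate 1. In irradiated against endogenous cells, where 0.603% of all tested genes were called, 1 of the 42 rose, and voom called 0. That number became 4 when circulating replicate 1 was dropped, 2 when circulating replicate 3 was, and 0 without any single irradiated or endogenous library.

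The 10 other type 1 conventional genes had positive log2 fold changes in circulating against endogenous cells, with a median of 1.44, and 9 of the 10 had their highest value in circulating replicate 2. Cd36 and Cadm1 rose and 8 did not pass, where 5.33% of all tested genes were called higher. Cd36, a scavenger receptor, averaged 36.4 ± 25.8 among circulating and 2.97 ± 0.959 among endogenous libraries (limma log2 fold change 3.06 ± 0.44 SE, adjusted p = 0.0058), and 2.54 without circulating replicate 2 (limma adjusted p = 0.0071). Cadm1, an adhesion molecule of type 1 dendritic cells, stood at 8.34, 83.1 and 13 in circulating and 2.12, 0.992 and 2.77 in endogenous libraries (limma log2 fold change 2.96 ± 0.76 SE, adjusted p = 0.039). That call was lost without circulating replicates 2 (0.058) or 3 (0.060), irradiated replicates 2 (0.055) or 3 (0.057), or endogenous replicates 1 (0.11), 2 (0.12) or 3 (0.080). In circulating against irradiated cells the list's most abundant genes were Ppt1, a lysosomal thioesterase, at 600 ± 281 and 302 ± 13.7 (limma adjusted p = 0.25), and Irf8, the transcription factor above, at 193 ± 109 and 111 ± 19.7 (0.59). In irradiated against endogenous cells Ppt1 was 302 ± 13.7 and 327 ± 44.4 (limma adjusted p = 0.88) and Irf8 111 ± 19.7 and 70.0 ± 25.7 (0.45).

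Of 7 tested type 2 conventional genes 2 rose in circulating against endogenous cells and 5 did not pass (median 0.12). Over all tested genes 5.33% were called higher. Mgl2, a galactose-binding lectin, was 8.42, 59.3 and 56.3 in circulating, 14.3, 10.9 and 18.2 in irradiated and 0.727, 3.58 and 3.09 in endogenous libraries (limma log2 fold change against endogenous 3.32 ± 0.65 SE, adjusted p = 0.016, and 0.063 without endogenous replicate 1). High values were thus in circulating replicates 2 and 3. Clec12a, an inhibitory lectin of myeloid cells and their progenitors, was 666 ± 295 in circulating, 353 ± 62.0 in irradiated and 121 ± 26.7 in endogenous libraries (SD, n = 3 each). It rose in circulating (log2 fold change 2.38, limma adjusted p = 0.0027) and in irradiated cells (1.55, 0.041) against endogenous cells. The irradiated call was lost without irradiated replicates 1, 2 or 3 (0.21, 0.079 and 0.21) or endogenous replicates 1, 2 or 3 (0.14, 0.18 and 0.075). Between circulating and irradiated cells it did not pass (0.83, limma adjusted p = 0.35, and 0.048 without circulating replicate 1), and neither did Sirpa, an inhibitory receptor, at 42.6 ± 17.5 and 34.5 ± 6.16 (limma adjusted p = 0.83).

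Of 10 tested plasmacytoid genes 1 fell in circulating against endogenous cells, 0 rose and 9 did not pass (median -0.40). Over all tested genes 3.3% were called lower. Runx2, a transcription factor that plasmacytoid dendritic cells use to leave the marrow in mice, was 33.6, 7.69 and 14.0 in circulating and 46.3, 39.3 and 55.8 in endogenous libraries (limma log2 fold change -1.53 ± 0.41 SE, adjusted p = 0.044). Circulating replicate 2 held its lowest value. The call was lost without circulating replicates 2 (0.080) or 3 (0.098), irradiated replicates 1, 2 or 3 (0.070, 0.065 and 0.063) or endogenous replicates 1, 2 or 3 (0.12, 0.090 and 0.12). Bcl11a, a transcription factor of the lymphoid and plasmacytoid lineages, averaged 121 ± 21.5 in circulating, 130 ± 1.74 in irradiated and 165 ± 8.70 in endogenous libraries, and Bst2, the surface marker tetherin, was 56.4 ± 8.92, 67.7 ± 4.33 and 55.7 ± 9.92 in the same groups. Neither passed for circulating against irradiated (limma adjusted p = 0.79 and 0.61) or irradiated against endogenous cells (0.30 and 0.51).

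Among the partners and antagonists of E proteins, 1 of 4 fell and 3 did not pass, where 3.3% of all tested genes were called lower. Cbfa2t3, a corepressor that binds E proteins, was 22.0, 24.9 and 19.8 in circulating, 44.4, 51.8 and 50.2 in irradiated and 60.2, 47.3 and 68.7 in endogenous libraries. Every circulating library was below every other library, and against endogenous cells the log2 fold change was -1.35 (SE 0.20, limma adjusted p = 0.0060), and -1.43 without circulating replicate 2 (0.0082). The E protein genes Tcf3 and Tcf12 were 36.0 ± 9.94 and 86.4 ± 22.4 in circulating and 66.0 ± 10.4 and 104 ± 19.3 in irradiated cells (limma adjusted p = 0.32 and 0.64), and 50.5 ± 17.9 and 82.6 ± 4.81 in endogenous cells (0.55 and 0.54 for irradiated against endogenous).

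Of 11 tested genes shared by dendritic cells and their progenitors 1 rose in circulating against endogenous cells and 10 did not pass (median 0.16). The share called higher over all tested genes was 5.33%. Cst3, which encodes cystatin C, a protease inhibitor abundant in dendritic cells, was 375, 1183 and 568 in circulating, 469, 395 and 354 in irradiated and 276, 241 and 286 in endogenous libraries (limma log2 fold change against endogenous 1.24 ± 0.31 SE, adjusted p = 0.036). It was kept without circulating replicate 2 (0.79, limma adjusted p = 0.036), and lost when scaled by library size alone (0.058) and without circulating replicate 3 (0.069), irradiated replicates 1, 2 or 3 (0.058, 0.057 and 0.055) or endogenous replicates 1, 2 or 3 (0.10, 0.11 and 0.083). Flt3, the receptor for the main dendritic cytokine, was 766, 377 and 342 in circulating, 416, 469 and 325 in irradiated and 642, 807 and 870 in endogenous libraries. It did not pass between circulating and irradiated cells (log2 fold change 0.21, limma adjusted p = 0.79) or irradiated and endogenous cells (-0.94, limma adjusted p = 0.13, and 0.017 without circulating replicate 1). Cst3 did not pass between circulating and irradiated (0.65, limma adjusted p = 0.46) or irradiated and endogenous cells (0.59, 0.42).

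**Figure D4:**
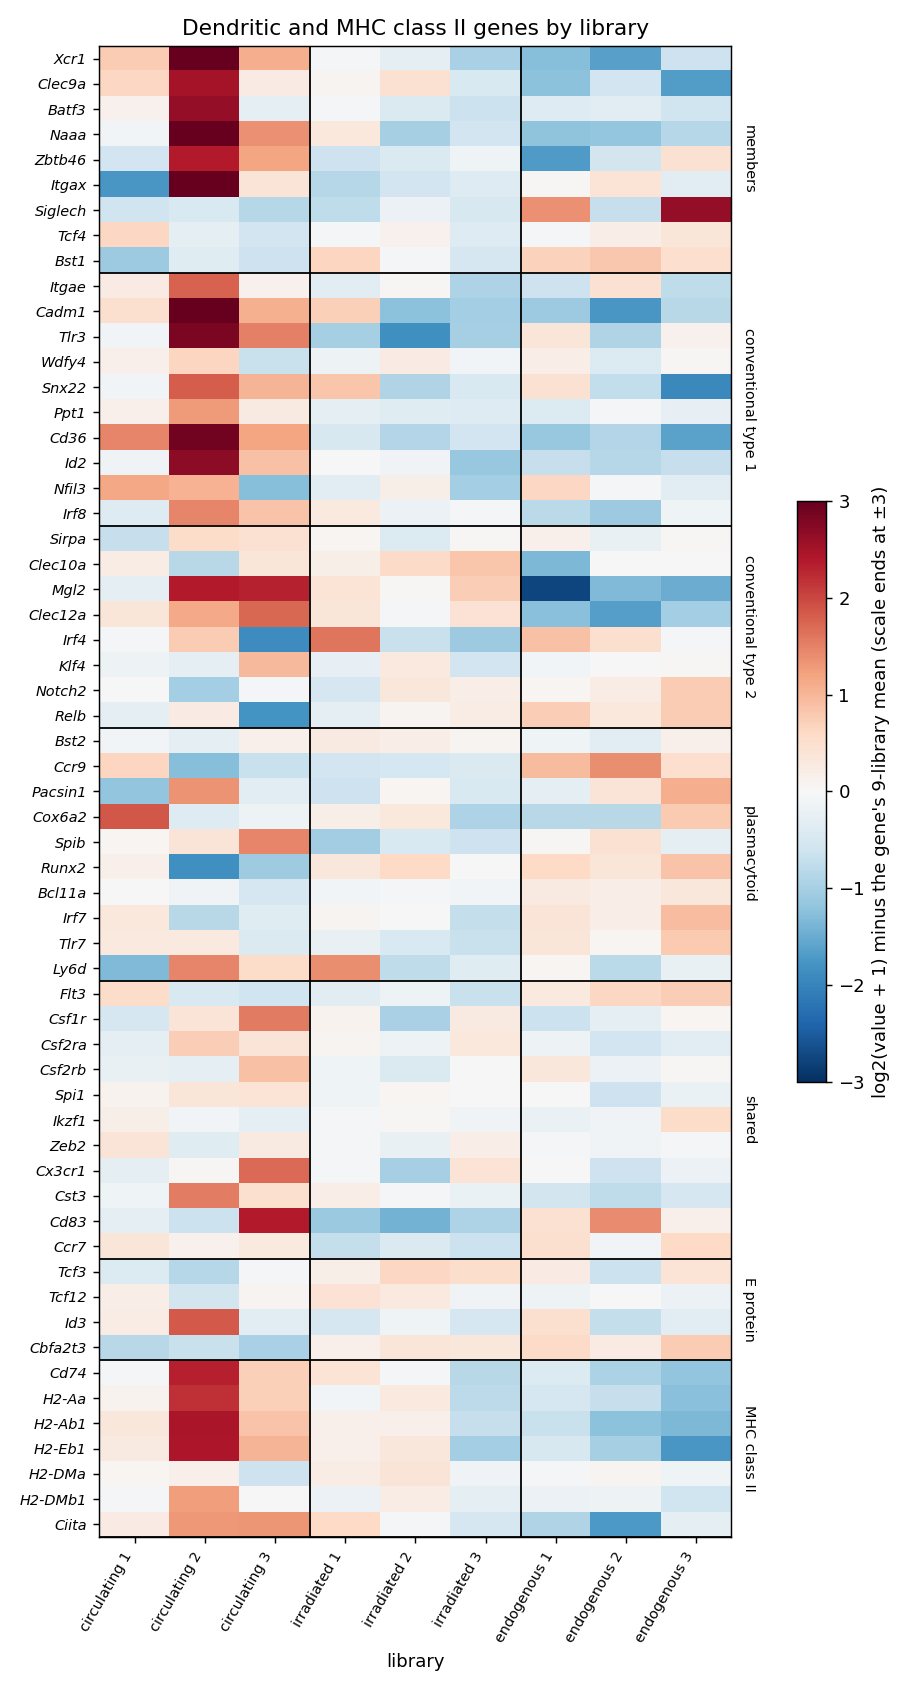
Log2(value + 1) of each measured gene of the member, wider dendritic and MHC class II lists minus its 9-library mean, by library; the color scale ends at 3 in both directions. Dark red lies in circulating replicate 2, in 6 of 9 members, in type 1 conventional genes such as Cadm1 and in MHC class II genes such as H2-Ab1. It also lies in endogenous replicate 3 for the member Siglech (11.1). The plasmacytoid genes are mixed in circulating replicate 2, with Runx2 at its lowest value and Pacsin1 and Ly6d at their highest.

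MHC class II genes, through which dendritic and B cells present antigen, had their highest summed value in the same library. The sum over 7 genes was 1631, 6500 and 2292 in circulating, 1766, 1690 and 974 in irradiated and 1156, 931 and 770 in endogenous libraries. In circulating against endogenous cells 4 of 7 rose and 3 did not pass, where 5.33% of all tested genes were called higher. Those called were H2-Eb1, H2-Ab1, Ciita and H2-Aa, with log2 fold changes of 2.31, 2.30, 1.94 and 1.82 (limma adjusted p = 0.028, 0.023, 0.031 and 0.036). Without circulating replicate 2 they were 1.72, 1.68, 1.76 and 1.23 (limma adjusted p = 0.042, 0.014, 0.060 and 0.042), so that Ciita was no longer called. Without circulating replicate 3 all 4 were lost (limma adjusted p = 0.074, 0.057, 0.083 and 0.084), and without endogenous replicate 2 as well (0.076, 0.071, 0.097 and 0.086). H2-Eb1, Ciita and H2-Aa were lost without endogenous replicate 1 (0.052, 0.088 and 0.081) and H2-Eb1, H2-Ab1 and H2-Aa without endogenous replicate 3 (0.082, 0.067 and 0.10), while H2-Aa was also lost without irradiated replicate 1 (0.055) and Ciita without irradiated replicate 2 (0.051). Between circulating and irradiated cells Cd74, the invariant chain, and H2-Ab1 did not pass (log2 fold changes 1.16 and 1.34, limma adjusted p = 0.48 and 0.35), nor between irradiated and endogenous cells (0.69 and 0.95, 0.64 and 0.40).

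Genes with the pattern most like each member were found by the mean absolute difference of centered log2 values over the 9 libraries, among 10372 genes. The 3 nearest to Xcr1 were Ifi205 (0.267 log2 units), an interferon-inducible gene, Plbd1 (0.287), a phospholipase B-like gene, and Gpr141b (0.305). The nearest to Clec9a were the MHC class II genes H2-Ab1 (0.343), H2-Eb1 (0.351) and H2-Aa (0.355). The nearest to Naaa were Klrk1 (0.269), which encodes the NK and T cell receptor NKG2D, Plbd1 (0.309) and Ckb (0.324), a creatine kinase. The nearest to Zbtb46 were Phf11a (0.354), Ms4a4b (0.410) and Itga1 (0.432), and those to Itgax were Gimap3 (0.421), Lpxn (0.455) and Shtn1 (0.458). All 14 different genes had their highest value in circulating replicate 2, as did the 5 members, so their choice by likeness favours this. Plbd1 for example stood at 52.0, 385 and 88.0 in circulating, 45.6, 34.0 and 32.3 in irradiated and 29.9, 16.4 and 23.9 in endogenous libraries.

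The sums of some marker lists of other mature cells also peaked in circulating replicate 2, namely those of T cells, B lineage cells and neutrophils. For neutrophils, 4 of the 8 genes were highest there, and Ltf and Retnlg were near 0. The summed monocyte and macrophage, NK, plasma cell, mast cell and basophil, and erythroid markers peaked in circulating replicate 3. Summed over Xcr1, Clec9a, Batf3 and Naaa, chosen as the type 1 members by role, the level was 67.4, 517 and 137 in circulating replicates 1, 2 and 3, 34.7 to 65.8 in irradiated and 22.7 to 29.96 in endogenous libraries. Naaa gave 363 of the 517, and all 4 genes were highest in circulating replicate 2. T cell markers summed to 103, 211 and 64.0 in circulating libraries, 53.4 to 85.5 in irradiated and 112 to 114 in endogenous libraries, with 5 of 6 highest in circulating replicate 2. Lck alone stood at 98.3, 101 and 46.9 in circulating libraries. The antigen receptor genes Cd3g and Trac stood at 31.0 and 30.1 in circulating replicate 2 and at most at 5.29 and 5.64 elsewhere. Cd8a, which resident type 1 dendritic cells also carry in mice, was 1.83, 32.3 and 0.221 in circulating libraries and at most 1.71 in the others. B lineage markers summed to 107, 295 and 227 in circulating, 72.8 to 99.3 in irradiated and 71.6 to 102 in endogenous libraries, with 6 of 7 highest in circulating replicate 2. Pax5, too low in most libraries to be tested, was at 0.188 there. Cd3e, Pax5 and Vpreb1 were each at 0 estimated counts in at least 1 other library.

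Monocyte and macrophage markers (8 of 9 in the table) summed to 1102, 1970 and 2234 in circulating, 1057 to 1475 in irradiated and 796 to 1189 in endogenous libraries. Cd14 was low in every library, between 0.0376 and 2.80, so its 0 estimated counts in circulating replicate 2, the shallowest library, tell little. Of the 8 genes, 3 were highest in circulating replicate 2. Among these, Ccr2 was 93.2, 344 and 117 in circulating libraries and at most 54.6 elsewhere. Of the NK list 3 of 6 genes were in the table and 2 were highest in circulating replicate 2, and the list summed to 524, 747 and 915 in circulating, 534 to 654 in irradiated and 225 to 282 in endogenous libraries, nearly all of it Nkg7. Neutrophil markers (8 of 8) summed to 1046, 1817 and 835 in circulating, 685 to 1485 in irradiated and 814 to 1656 in endogenous libraries. In circulating replicate 2 S100a8 alone gave 1012 of the sum. Ltf was 56.1, 0.488 and 148 in circulating replicates 1, 2 and 3 and 87.25 to 312 in the other groups. Retnlg was 26.1, 0.113 and 0.0849 in circulating replicates 1, 2 and 3 and 17.2 to 59.6 in the other groups. Plasma cell markers (5 of 5) summed to 1036 to 1755 in circulating, 269 to 1478 in irradiated and 352 to 758 in endogenous libraries. The sums of the next lists peaked in circulating replicate 3 and are given for circulating, irradiated and endogenous libraries in turn. Mast cell and basophil markers (5 of 6) gave 121 to 760, 123 to 235 and 90.2 to 108. Erythroid markers (6 of 6) gave 153 to 787, 120 to 430 and 117 to 154. Granulocyte-monocyte progenitor genes (8 of 8) gave 12899 to 39038, 7719 to 16200 and 2184 to 3120. In circulating against endogenous cells 5 of 7 tested progenitor genes were called higher, beside 5.33% of all tested genes. The median log2 fold change of the 7 was 3.14, beside 1.60 for the members. Irf8 and Csf1r, shared with the wider dendritic list, were not called. Of the endothelial and stromal list 1 of 6 genes was in the table. The part of other cell types, of depth and of this library in the dendritic differences was not tested. Without circulating replicate 2, Xcr1, Naaa and Bst1 kept their calls against endogenous cells and Clec9a lost its call. These 4 calls held in 14, 8, 3 and 6 of 16 alternatives. Batf3 was above 1 in circulating replicate 2 only.

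**Figure D5:**
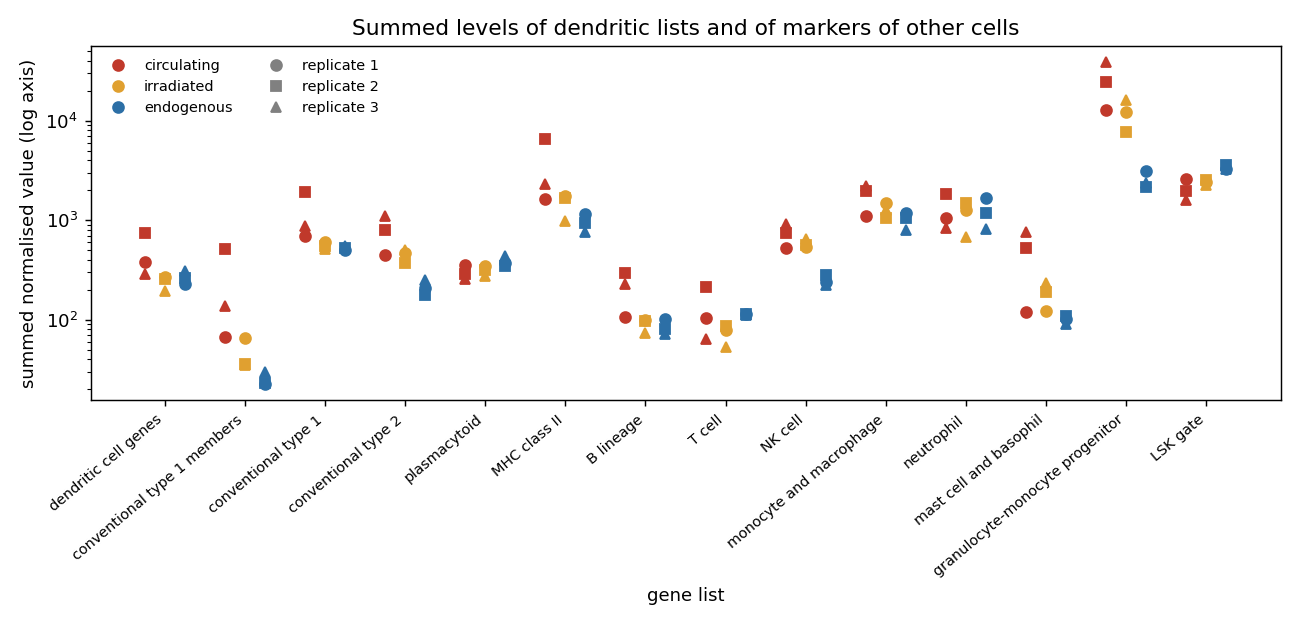
Summed normalised value (log axis) of dendritic lists and of marker lists of other cells in each library, by group (color) and replicate number (symbol). The type 1 conventional members reach 517 in circulating replicate 2, of which Naaa gives 363, and MHC class II genes 6500, while the plasmacytoid list has no such step.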

How the data were processed

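RNA from sorted LSK cells was amplified with SMART-Seq v4 and made into Nextera XT libraries, which do not mark strand, per the labels' protocols. Tools and builds listed in the submitters' processing notes are RSEM 1.3.1, CASAVA, limma and mm10, with no role given. The deposited signal values are the authors' normalised values: each is a number with 2 decimals plus 0.5, times a constant of its column (tolerance 0.001 of a decimal step). Estimated counts were recovered from this form. A level of 3 counts corresponds to 0.128 to 0.263 by library, and PCR reads without molecular identifiers limit such floors to counting error.

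Symbols came from the mouse annotation in GRCm38, for 14405 of the 14461 genes. Log2(value + 1) was fitted for all 9 libraries together with limma 3.58.1 (limma-trend with robust moderation, R 4.3.3), without covariates, in 13771 genes with a value of at least 1 in at least 3 libraries. Benjamini-Hochberg adjustment ran over these genes, with calls under 0.05. The fit was tested on simulated data. Alternatives were a pseudocount of 0.25, no filter, sample weights, the compared groups alone, limma's voom on estimated counts, scaling by library size, a replicate block and leaving out each library. Where a group then holds 2 libraries, the spread is pooled over groups. From each further list the text names up to 4 called genes of largest change per comparison or, with none called, the 2 most abundant, and marker genes of other cells that are near 0 or highest in their list. Cd3g, Trac, Cd8a, Ccr2 and the library values of Plbd1 are given after their values were seen. The members and lists were chosen with earlier results of these data known. Groups follow the source labels.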

Additional observations from a re-analysis of the deposited data

How the results depend on the processing

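Counts of called genes moved more than directions did. In circulating against endogenous cells, where 4 members, 7 genes of the wider dendritic list and 1189 of all genes were called, sample weights called 2 members and 494 genes, the compared groups alone 1 member, 3 of the wider list and 252 genes, and voom 1 member and 3 of the wider list. Leaving out single libraries gave 0 to 5 members, 3 to 17 of the wider list and 262 to 2230 genes. In circulating against irradiated cells, with 4 genes called, voom called 8 (3 higher and 5 lower) and scaling by library size alone 11 (3 higher and 8 lower). Leaving out single libraries gave 0 to 1 member, 0 to 4 of the wider list and 3 to 134 genes. In irradiated against endogenous cells, with 1 of the wider list and 83 genes called, sample weights gave 6 and 897, the compared groups alone 6 and 781, and voom 0 of the list. Leaving out single libraries gave 0 to 4 and 6 to 265, and scaling by library size alone called 49 genes higher and 26 lower in place of 65 and 18.

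In their titles, each circulating library and the irradiated library with its number share a code of unstated meaning. By their deviations from group means the numbers paired these libraries weakly and only in part. Same-numbered correlations were 0.05, 0.03 and 0.18 between these groups and -0.02 to 0.18 over all comparisons. Differently numbered ones ran from -0.17 to 0.11 between these groups. Circulating replicates 2 and 3 correlated best with the irradiated library of their own number. Circulating replicate 1 correlated better with irradiated replicate 2 (0.11) than with irradiated replicate 1. Whether same-numbered libraries share an animal cannot be told from these values. A fit with the replicate block called 2 members in circulating against endogenous cells, without Naaa (limma adjusted p = 0.055) and Bst1 (0.064), and also without Cadm1 (0.056). It called 9 genes in circulating against irradiated cells.

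Signs turned for Itgax in circulating against endogenous cells, at -0.80 with voom and between -0.73 and 1.68 with single libraries left out, and for Tcf4 in circulating against irradiated cells, at -0.0514 with scaling by library size alone and between -0.34 and 0.26. With single libraries left out, the same comparison ran from -0.15 to 0.43 for Flt3, -0.0895 to 2.32 for Itgax, -0.00397 to 0.61 for Sirpa and -0.22 to 0.0314 for Bcl11a, and irradiated against endogenous from -0.35 to 0.734 for Zbtb46. None of these passed the test with all libraries. The causes were not tested. Low estimated counts limit Batf3 and Siglech in most libraries and Bst1 in circulating libraries.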
